A study of Mus musculus with 8 samples.

Results

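The genes described here are 10 of the 23420 genes counted in the series: the secreted Wnt modulators Sfrp2 and Notum, the receptor-level regulators Lgr5 and Znrf3, the cytoplasmic inhibitors Axin2, Nkd1 and Nkd2, and the DNA-binding effectors Tcf7, Tcf7l2 and Lef1. They were picked by symbol after differences between AUF1-overexpressing and WT cells were known, so their AUF1 against WT values are a description here and carry no test. The cells were C2C12, a mouse myoblast line, moved from growth medium with 10% FBS to 2% horse serum for 48 h, the low-serum step that makes these cells differentiate into myotubes. The groups were AUF1-overexpressing cells, heavy polysomes; WT cells, heavy polysomes; AUF1-overexpressing cells, total RNA; and WT cells, total RNA, with 2 libraries each. AUF1, encoded by Hnrnpd, is a protein that binds AU-rich stretches of mRNA, and heavy polysomes are the cytoplasmic fraction in which an mRNA carries many ribosomes. The labels do not say if WT cells received an empty vector, if the overexpressing line is clonal or pooled, or if replicates were separate cultures. AUF1 itself and other differences between the 2 cell lines therefore cannot be told apart. The p-values set a difference only against the spread estimated from these libraries, which may in part be technical.

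In canonical Wnt signalling a Wnt ligand binds a Frizzled receptor with Lrp5 or Lrp6, β-catenin escapes degradation, and it joins TCF/LEF proteins on DNA to switch on target genes. Several targets feed back on the pathway: Axin2 scaffolds the complex that degrades β-catenin, Nkd1 and Nkd2 bind Dishevelled, Notum removes the lipid that Wnt ligands need, and Znrf3 takes Frizzled receptors off the cell surface unless R-spondin and an Lgr receptor hold it back. In muscle, Wnt signals are known to act on the balance between myoblast proliferation and differentiation.

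AUF1 is known for binding AU-rich elements in 3' untranslated regions, whose shortest common core is AUUUA, so the members' annotated 3' untranslated regions were searched for it. AUUUA stood in 7 of 10 members, against 66.3% of 11958 tested genes with an annotated 3' untranslated region in GENCODE M21. Znrf3 had 12 copies, Lgr5 8, Axin2, Nkd1, Tcf7l2 and Lef1 3 each, Nkd2 1, and Sfrp2, Notum and Tcf7 0. The median over the 10 members was 2.10 copies per kb, against 1.21 per kb over those genes. The longer form TTATTTATT was in 0 of 10 members and in 7.48% of the genes. The 3 AUUUA windows of Axin2 are shown as an example. Axin2 was taken because the fit without replicate number called it in both fractions, so nothing is read from its having them. AUUUA is in capitals, and the number in each name counts bases from the start of the 3' untranslated region.
Axin2 237: agccugaacuAUUUAuucaaaacau
Axin2 388: ccuuacugauAUUUAuugaacaguc
Axin2 1310: uaaagaguucAUUUAaagaaaacua
A match describes letters only and is no evidence of binding.

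TCF/LEF proteins are known to recognise the core CTTTG followed by 2 letters that are each A or T, and these 7-letter words were searched on both strands of 300-base RefSeq promoter windows (GRCm38.p6), from 250 bases before to 50 after a gene start. RefSeq windows were matched for 7 of 10 members, with 12 windows in all. A word was found in 2 of the 12 windows, 1 of Tcf7l2 and 1 of Lef1, while 16.9% of all 32851 windows held one. The shorter core CTTTG, part of each word, was in 6 of the 12 windows, all of Tcf7l2 or Lef1, against 53.9% of all windows. The windows of the 2 effectors are shown with their word in capitals, beside that of Axin2, a well-known TCF/LEF target in which this short window held none. The Tcf7l2 window is chr19:55895071-55895370, with CTTTGTT starting at -14 from the gene start, the Lef1 window is chr3:131156044-131156343, with CTTTGTA read on the opposite strand at -147, and the Axin2 window is chr11:108920099-108920398. All 3 genes lie on the plus strand, and the Tcf7l2 and Lef1 windows are at starts inside the gene, downstream of its first start.
Tcf7l2: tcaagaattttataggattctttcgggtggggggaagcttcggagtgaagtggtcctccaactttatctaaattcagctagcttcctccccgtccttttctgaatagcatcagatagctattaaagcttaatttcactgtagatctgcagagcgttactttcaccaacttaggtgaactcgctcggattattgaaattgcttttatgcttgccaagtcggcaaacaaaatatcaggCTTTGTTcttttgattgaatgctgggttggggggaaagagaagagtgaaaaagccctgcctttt
Lef1: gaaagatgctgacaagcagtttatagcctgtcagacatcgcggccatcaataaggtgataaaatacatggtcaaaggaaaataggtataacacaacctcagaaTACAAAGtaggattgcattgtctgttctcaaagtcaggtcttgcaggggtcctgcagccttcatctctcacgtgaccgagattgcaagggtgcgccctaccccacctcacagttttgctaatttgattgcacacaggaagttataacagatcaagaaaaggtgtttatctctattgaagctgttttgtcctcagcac
Axin2: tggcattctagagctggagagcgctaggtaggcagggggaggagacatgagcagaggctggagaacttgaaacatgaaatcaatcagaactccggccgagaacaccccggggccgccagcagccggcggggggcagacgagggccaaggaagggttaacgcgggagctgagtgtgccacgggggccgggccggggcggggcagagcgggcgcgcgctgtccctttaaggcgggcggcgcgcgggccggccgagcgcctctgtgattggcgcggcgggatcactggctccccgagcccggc

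Libraries held 25281224 to 34917660 counts in genes. Hnrnpd had 549 and 427 CPM (counts scaled to a common library size) in AUF1 polysomes, against 106 and 131 CPM in WT polysomes, and 448 and 397 CPM in AUF1 total RNA, against 64.2 and 99.6 CPM in WT total RNA, higher in AUF1 than in WT libraries without overlap (log2 fold change 2.04 ± 0.32 on polysomes and 2.37 ± 0.32 in total RNA). The first principal component, with 44.6% of the variance, split replicate 1 from replicate 2, and the second, with 37.1%, split AUF1 from WT. Replicate numbers are therefore treated as a batch found in the data, and changes within each number stand beside the pooled ones. The numbers follow the sample titles, while the sample descriptions call replicate 2 Rep3. Myogenic markers summed to 6083 to 6966 CPM in AUF1 polysomes, against 1974 to 2403 CPM in WT polysomes, and to 8099 to 10595 CPM in AUF1 total RNA, against 2420 to 2557 CPM in WT total RNA. Of these 7 markers 6 had a fitted value above 0 and 1, Myf5, below 0 in each fraction. In total RNA 2 were called higher (4 with replicate number as a term), and on polysomes 0 were called. Over all genes 1.02% were called in total RNA (6.99% higher with the term) and 0.349% on polysomes. The myogenic sums weigh abundant genes such as Des and Myog most. On polysomes the genotypes overlapped for Myod1, with 261 and 337 CPM in AUF1 against 191 and 359 CPM in WT. They also overlapped there for Cdh15, with 481 and 94.5 CPM in AUF1 against 256 and 80.9 CPM in WT. Fibroblast markers (9 listed, 7 tested) summed to 522 to 987 CPM in AUF1 polysomes, against 859 to 3562 CPM in WT polysomes, and to 529 to 1813 CPM in AUF1 total RNA, against 830 to 4993 CPM in WT total RNA. All 7 had a fitted value below 0 in AUF1 over WT in each fraction, and 0 were called. With replicate number as a term 5 were called lower on polysomes and 4 in total RNA, against 6.33% and 6.15% of all genes. Lum and Thy1 were at 0 in 6 of 8 libraries each. Col3a1 was the most abundant fibroblast marker in each library, with 3357 CPM in WT total replicate 1. In bulk RNA, fewer cells of a type and less RNA per cell cannot be told apart, and the part of either marker group in the values below was not tested.

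**Figure D1:**
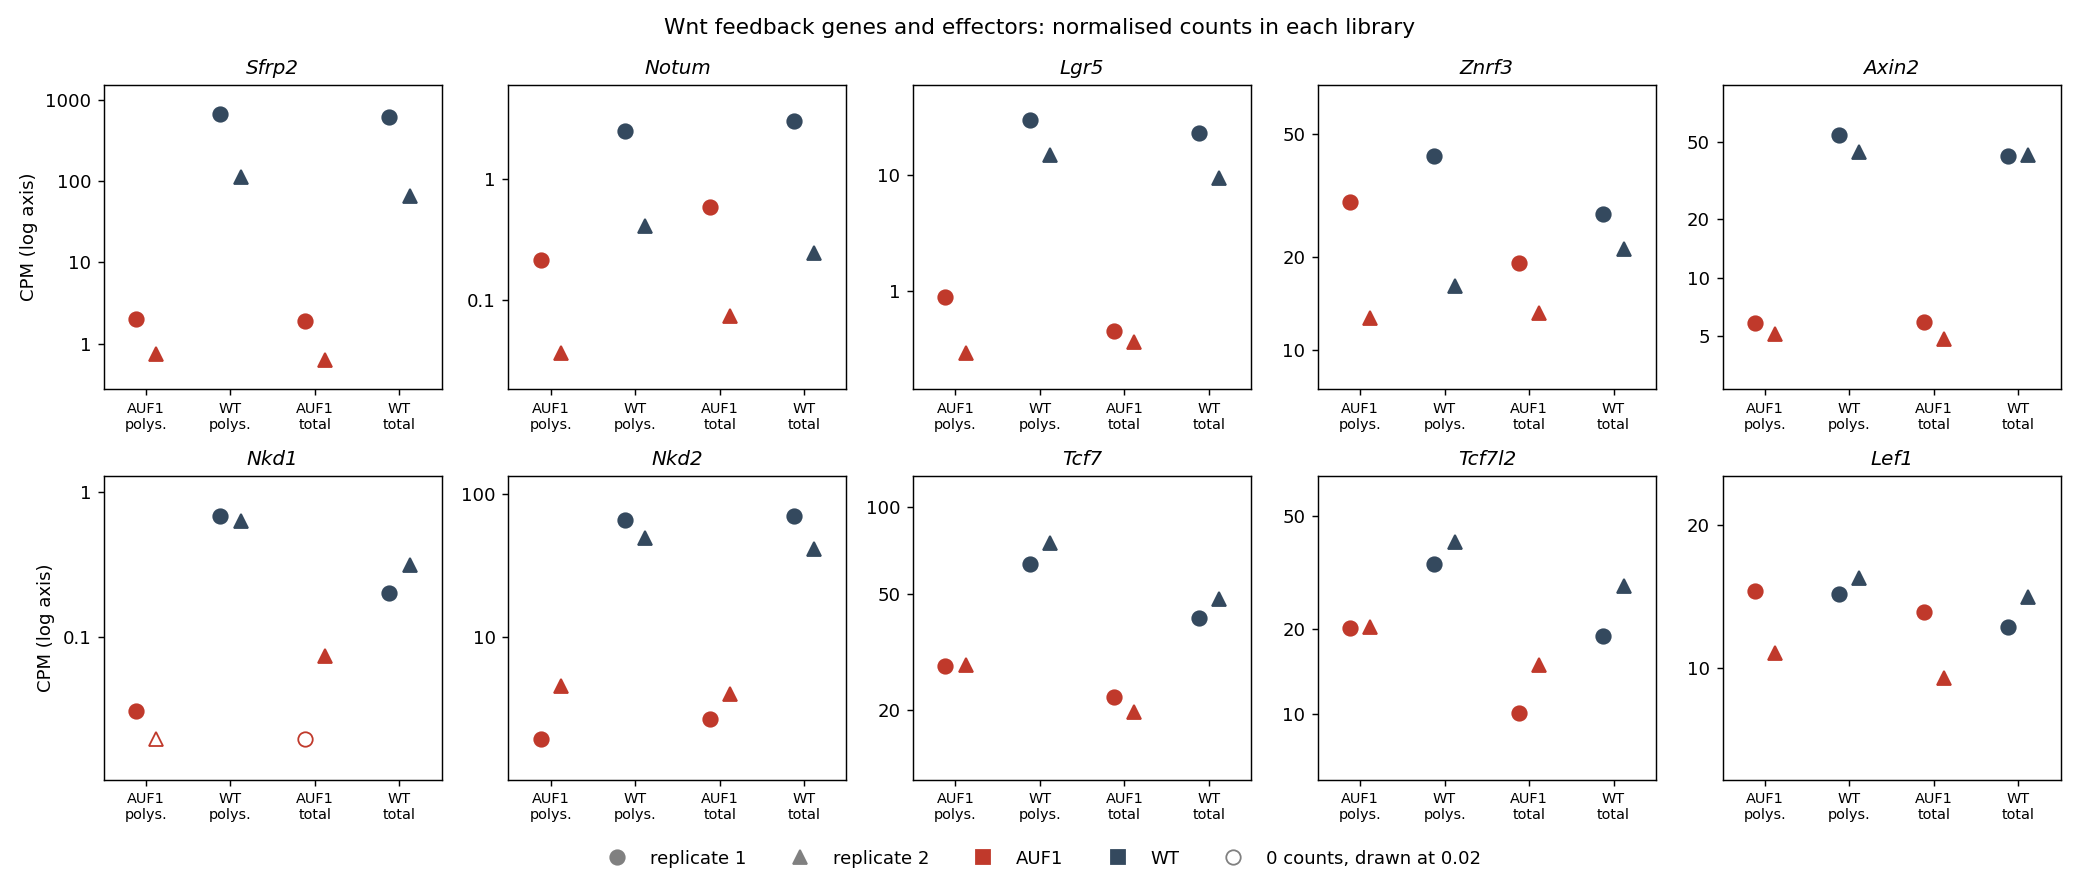
CPM of the 10 genes in each of the 8 libraries, on log axes that differ between panels; columns are AUF1 and WT heavy polysomes (polys.) and AUF1 and WT total RNA, circles replicate 1, triangles replicate 2, and open symbols 0 counts drawn at 0.02. Sfrp2, Lgr5, Axin2, Nkd1 and Nkd2 lie far lower in AUF1, Tcf7 and Tcf7l2 lie lower by a smaller factor, and the groups overlap for Lef1 in both fractions, for Znrf3 on polysomes and for Notum in total RNA.

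All 10 genes passed the filter on low counts, Nkd1 through its WT polysome libraries alone, and had a lower fitted level in AUF1 than in WT cells in both fractions. The median log2 fold change, AUF1 over WT, was -3.31 on polysomes and -2.49 in total RNA, against 0.0023 and 0.0024 over the 13167 genes tested. Within replicate 1 the value lay below 0 for 9 members and within replicate 2 for 10, in each fraction, with Lef1 as the exception. Without overlap, AUF1 lay lower for 8 members on polysomes and for 8 in total RNA, and over all genes that share was 21.3% and 17.8%. By edgeR's quasi-likelihood test (adjusted p under 0.05), 1 member was called on polysomes, Axin2, where 0.349% of genes were called and 0.0684% called lower. In total RNA 3 members were called, all lower, namely Axin2, Lgr5 and Nkd2, where 1.02% of genes were called and 0.197% called lower. With replicate number as a term, 7 members were called lower in each fraction, against 6.33% of genes on polysomes and 6.15% in total RNA. On polysomes these were Axin2, Lgr5, Nkd2, Tcf7, Sfrp2, Notum and Nkd1, and in total RNA Tcf7l2 stood in place of Nkd1. Fewer members were called with the term, in each fraction, in some fits that left a library out. Since the members were picked with these contrasts known, nothing is read from the counts.

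**Figure D2:**
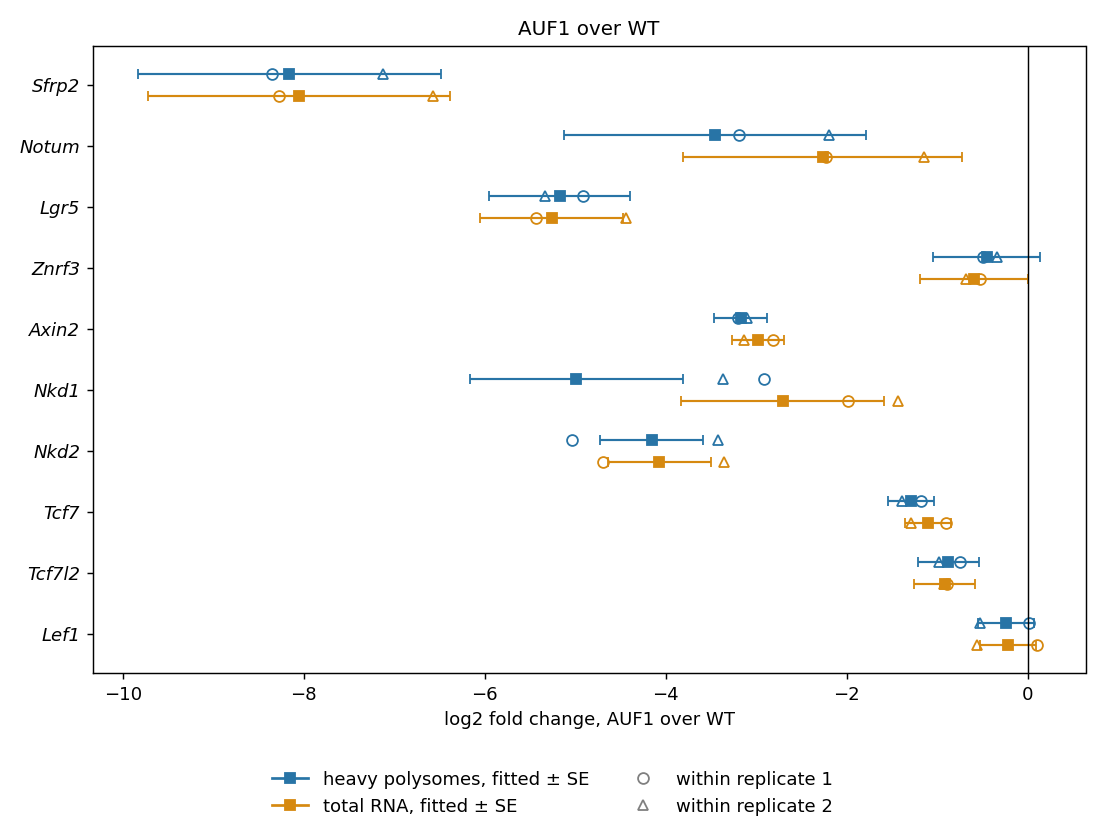
log2 fold change, AUF1 over WT, of the 10 genes; squares with bars are fitted values ± SE on heavy polysomes (blue) and in total RNA (orange), open circles and triangles the changes within replicate 1 and replicate 2. Fitted values run down to -8.16 for Sfrp2 and lie nearest 0 for Lef1, whose change within replicate 1 lies above 0.

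Of the secreted modulators, Sfrp2, a Frizzled-related protein that binds Wnt ligands, had the largest fitted fold change. Sfrp2 (chromosome 3, 83766321 to 83774316, mm10) had 1.99 and 0.737 CPM in AUF1 polysomes, against 671 and 112 CPM in WT polysomes. In total RNA it had 1.93 and 0.629 CPM in AUF1 cells, against 616 and 66.1 CPM in WT cells. The lowest WT library was 56.5 times the highest AUF1 library on polysomes and 34.3 times in total RNA. The log2 fold change was -8.16 ± 1.68 (SE) on polysomes, with -8.35 and -7.13 within replicates 1 and 2, and -8.05 ± 1.67 in total RNA, with -8.27 and -6.57. The large SE goes with the replicates: replicate 1 over replicate 2 was 2.70 in AUF1 and 5.97 in WT polysomes, and 3.06 in AUF1 and 9.32 in WT total RNA. The summed fibroblast markers had replicate 1 over replicate 2 ratios of 1.89, 4.15, 3.43 and 6.01 in the same 4 groups. Without WT total replicate 1 the Sfrp2 value in total RNA was -5.81.

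Notum (chromosome 11, 120653788 to 120661175), the enzyme that inactivates Wnt ligands outside the cell, was scarce in all libraries. It had 0.218 and 0.037 CPM in AUF1 polysomes, against 2.53 and 0.413 CPM in WT polysomes, and 0.596 and 0.074 CPM in AUF1 total RNA, against 3.04 and 0.246 CPM in WT total RNA. The groups did not overlap on polysomes and overlapped in total RNA, where AUF1 replicate 1 lay above WT replicate 2. In log2 units AUF1 over WT was -3.45 ± 1.67 on polysomes, with -3.18 and -2.19 within the numbers, and -2.27 ± 1.54 in total RNA, with -2.23 and -1.14. Without WT total replicate 1, which leaves both AUF1 libraries against WT replicate 2, the value in total RNA was 0.31, and within replicate 2 alone it was -1.14. Without WT polysome replicate 1 the polysome value was -1.63. Only 1 AUF1 and 3 WT libraries reached 10 counts.

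At the receptor, Lgr5, which binds R-spondins, lay far lower in AUF1 cells. Lgr5 (chromosome 10, 115450311 to 115587780) had 0.901 and 0.295 CPM in AUF1 polysomes, against 29.1 and 14.6 CPM in WT polysomes, and 0.455 and 0.370 CPM in AUF1 total RNA, against 22.6 and 9.41 CPM in WT total RNA. The groups lay apart, with the lowest WT library 16.2 times the highest AUF1 library on polysomes and 20.7 times in total RNA. On the log2 scale AUF1 over WT was -5.17 ± 0.78 on polysomes, with -4.91 and -5.34 within the numbers, and -5.26 ± 0.79 in total RNA, with -5.44 and -4.43. A930009A15Rik, on the opposite strand at this locus, had 0 counts in all libraries.

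Znrf3 (chromosome 11, 5276324 to 5444847), the ubiquitin ligase that removes Frizzled receptors, had nearer levels in the 2 genotypes. It had 30.0 and 12.8 CPM in AUF1 polysomes, against 42.3 and 16.2 CPM in WT polysomes, and 19.1 and 13.2 CPM in AUF1 total RNA, against 27.5 and 21.2 CPM in WT total RNA. AUF1 lay below WT within each number, but the polysome groups overlapped. The fitted log2 fold change was -0.45 ± 0.59 on polysomes, with -0.49 and -0.34 within the numbers, and -0.59 ± 0.59 in total RNA, with -0.52 and -0.68. On polysomes it was 0.40 without WT polysome replicate 1 and 0.01 without AUF1 polysome replicate 2.

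Among the cytoplasmic inhibitors, Axin2 (chromosome 11, 108920349 to 108950783), the feedback scaffold used widely as a readout of Wnt signalling, had close replicates and a large fold. It had 5.84 and 5.12 CPM in AUF1 polysomes, against 54.5 and 44.4 CPM in WT polysomes, and 5.92 and 4.85 CPM in AUF1 total RNA, against 42.2 and 43.1 CPM in WT total RNA. Every WT library was at least 7.60 times every AUF1 library on polysomes and 7.12 times in total RNA. The log2 fold change was -3.17 ± 0.29 on polysomes, with -3.21 and -3.10 within the numbers, and -2.98 ± 0.29 in total RNA, with -2.82 and -3.13. Unlike Sfrp2, its replicate 1 over replicate 2 ratios lay between 0.979 and 1.23 in the 4 groups.

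Nkd2 (chromosome 13, 73818534 to 73847631), a Dishevelled-binding inhibitor, had 1.93 and 4.54 CPM in AUF1 polysomes, against 65.6 and 49.3 CPM in WT polysomes. In total RNA Nkd2 had 2.66 and 4.0 CPM in AUF1 cells, against 70.5 and 41.4 CPM in WT cells. The groups lay apart by a factor of 10.9 on polysomes and 10.4 in total RNA between nearest libraries. In log2 units AUF1 over WT was -4.15 ± 0.57 on polysomes, with -5.04 and -3.42 within the numbers, and -4.07 ± 0.57 in total RNA, with -4.69 and -3.35.

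Nkd1 (chromosome 8, 88521354 to 88594884), its close relative, was near the limit of detection. It had 1 and 0 counts in AUF1 polysomes, against 24 and 20 in WT polysomes, and 0 and 2 counts in AUF1 total RNA, against 5 and 9 in WT total RNA. Scaled to library size, summed AUF1 over WT counts gave a ratio of 0.0256 on polysomes (exact 95% interval 0.000633 to 0.150) and 0.137 in total RNA (0.0151 to 0.595). These intervals cover counting error only. Its fitted log2 fold change in total RNA, -2.71, was -5.97 without AUF1 total replicate 2, the only AUF1 total library with counts, and such a value depends on the prior count. No AUF1 library and 2 WT libraries reached 10 counts, so Nkd1 entered the fit through its WT polysome level.

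The DNA-binding effectors were present in all libraries and differed less. Tcf7 (chromosome 11, 52252371 to 52283014), encoding TCF1, had 28.2 and 28.5 CPM in AUF1 polysomes, against 63.7 and 74.8 CPM in WT polysomes, and 22.1 and 19.7 CPM in AUF1 total RNA, against 41.6 and 48.1 CPM in WT total RNA. The 2 genotypes did not overlap in either fraction. On the log2 scale AUF1 over WT was -1.29 ± 0.25 on polysomes, with -1.17 and -1.39 within the numbers, and -1.10 ± 0.25 in total RNA, with -0.91 and -1.29.

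Tcf7l2 (chromosome 19, 55741820 to 55933654), encoding TCF4 of the TCF/LEF family, had 20.1 and 20.4 CPM in AUF1 polysomes, against 33.8 and 40.3 CPM in WT polysomes. In total RNA Tcf7l2 had 10.1 and 14.9 CPM in AUF1 cells, against 18.9 and 28.4 CPM in WT cells. The groups again did not overlap. The fitted log2 fold change was -0.87 ± 0.34 on polysomes, with -0.75 and -0.98 within the numbers, and -0.92 ± 0.34 in total RNA, with -0.89 and -0.93. Without WT total replicate 2 the total RNA value was -0.59.

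Lef1 (chromosome 3, 131110471 to 131224356), another factor of the TCF/LEF family, differed least. Lef1 had 14.5 and 10.8 CPM in AUF1 polysomes, against 14.3 and 15.5 CPM in WT polysomes, and 13.1 and 9.55 CPM in AUF1 total RNA, against 12.2 and 14.1 CPM in WT total RNA. The groups overlapped in both fractions. The log2 fold change was -0.24 ± 0.31 on polysomes, with 0.02 and -0.52 within the numbers, and -0.22 ± 0.31 in total RNA, with 0.10 and -0.56, so AUF1 lay below WT in replicate 2 alone.

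Per length, the order of the genes was led by Sfrp2 in WT cells and by Tcf7 in AUF1 cells. On the scale of CPM per kb of annotated exon, the WT polysome means were Sfrp2 182, Tcf7 26.4, Nkd2 11.9, Axin2 8.98, Tcf7l2 4.22, Znrf3 3.70, Lgr5 2.13, Lef1 1.70, Notum 0.611 and Nkd1 0.144 (n = 2 libraries). In AUF1 polysomes the same scale gave Tcf7 10.8, Znrf3 2.71, Tcf7l2 2.30, Lef1 1.44, Axin2 0.996, Nkd2 0.669, Sfrp2 0.633, Lgr5 0.0583, Notum 0.0528 and Nkd1 0.00341. Tcf7 stood clear of its next neighbour below in both polysome groups. The library ranges of these neighbours overlapped: Znrf3 with Tcf7l2, Axin2 with Nkd2, Nkd2 with Sfrp2 and Lgr5 with Notum in AUF1 polysomes, and Tcf7l2 with Znrf3, Znrf3 with Lgr5 and Lgr5 with Lef1 in WT polysomes. In total RNA the WT order was the same but for Znrf3 at 3.08 and Tcf7l2 at 2.69, which changed places, and the AUF1 order was the same but for Notum at 0.139 and Lgr5 at 0.0402. The CPM per kb of Sfrp2 in WT total RNA ran over 30.7 and 286 in its 2 libraries. Taking the longest transcript as the length moved the rank of 3, 0, 3 and 4 members in AUF1 polysomes, WT polysomes, AUF1 total RNA and WT total RNA.

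Whether the mRNAs were richer on heavy polysomes than in total RNA was tested within each genotype, a contrast the choice of genes did not use. None of the 10 passed the test in AUF1 or in WT cells (edgeR's quasi-likelihood test, adjusted p = 1.00 for each), and 0% of genes were called in either genotype. At an unadjusted p under 0.05 there were 0 members in AUF1 and 1 in WT, with 438 and 364 genes of 13167. DESeq2 called 0 members in either genotype and 29 genes in AUF1 and 30 in WT, all lower on polysomes, and the fit with replicate number as a term called 0 members and 2 genes in each. The member past the unadjusted threshold was Tcf7 in WT, where polysome over total was 0.63 ± 0.25 on the log2 scale with 0.62 and 0.64 within the numbers. In AUF1 cells it was 0.44 ± 0.25, with 0.35 and 0.53. Tcf7l2 had 0.69 ± 0.34 in AUF1, with 0.98 and 0.45 within the numbers, and 0.65 ± 0.33 in WT, with 0.84 and 0.51. Both genes had polysome libraries above total libraries without overlap in both genotypes. Across members, polysomes lay higher without overlap for 2 in AUF1, against 8.86% of all genes, and for 5 in WT, against 13.0%. The others in WT were Axin2, Nkd1 and Lef1. Nkd1 passed the filter on low counts through its WT polysome libraries alone, so nothing is read from its place among them. Axin2 had 0.03 ± 0.27 in AUF1 and 0.21 ± 0.27 in WT, and Sfrp2 0.10 ± 1.29 in AUF1 and 0.20 ± 1.22 in WT.

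**Figure D3:**
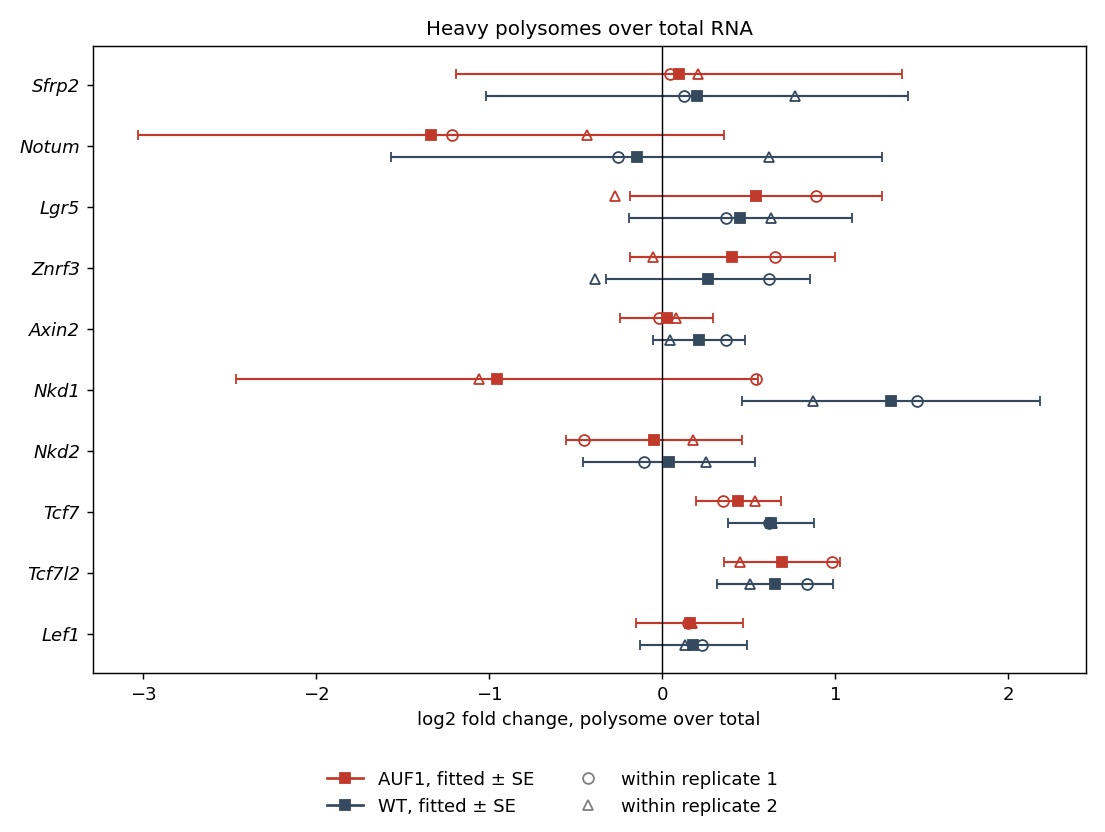
log2 fold change, heavy polysomes over total RNA, of the 10 genes in AUF1 (red) and WT (dark blue) cells; squares with bars are fitted values ± SE, open circles and triangles the changes within replicate 1 and replicate 2. Tcf7 and Tcf7l2 lie above 0 in both genotypes and both numbers, between 0.35 and 0.98, and the bars of the scarce genes Notum and Nkd1 are wide.

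Whether the genotype difference was of another size on polysomes than in total RNA was tested as the interaction. It was not detected for any member (edgeR's quasi-likelihood test, adjusted p = 1.00 for each), and 0% of the 13167 genes were called, with 16 genes and 0 members at an unadjusted p under 0.05. DESeq2 and the fit with replicate number as a term also called 0 genes, with 16 and 49 at an unadjusted p under 0.05. The difference of log2 fold changes, polysome minus total, was -0.19 ± 0.38 for Axin2, -0.19 ± 0.35 for Tcf7, 0.04 ± 0.47 for Tcf7l2, -0.02 ± 0.44 for Lef1, -0.08 ± 0.71 for Nkd2, 0.14 ± 0.83 for Znrf3 and 0.09 ± 0.93 for Lgr5. For the genes with large SEs it was -0.10 ± 1.78 for Sfrp2, -1.19 ± 2.19 for Notum and -2.28 ± 1.82 for Nkd1, so differences of several fold cannot be seen for them at this replication.

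The genes whose pattern was most like that of Axin2 were Gcnt1, Dclk2, Fam43a, Zfp629 and Zfp61, with Pearson's r of 0.993, 0.991, 0.991, 0.989 and 0.987 of log2 CPM over the 8 libraries, among the 9655 genes whose log2 CPM averaged 3 or more. Gcnt1 had 1.83 and 1.70 CPM in AUF1 polysomes, against 71.5 and 43.0 CPM in WT polysomes. Fam43a had 3.48 and 4.13 CPM in AUF1 polysomes, against 42.4 and 50.9 CPM in WT polysomes. For Sfrp2 they included Gas1, 2610307P16Rik, Adamtsl3 and Adamts16, with r of 0.995, 0.992, 0.991 and 0.990. Gas1 had 86.8 and 67.6 CPM in AUF1 polysomes, against 462 and 260 CPM in WT polysomes, so likeness of shape does not mean a like level or fold. Among the members, r with Axin2 ran from 0.510 for Znrf3 to 0.984 for Lgr5. The 8 points share 2 genotypes and 2 replicate numbers, and these r are a description.

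A list of 109 other Wnt pathway genes by role, of which 85 were tested, was read against all genes tested. On polysomes edgeR's quasi-likelihood test called 0 of 85, where it called 0.349% of all genes, and 13 had an unadjusted p under 0.05, where 14.1% of all genes did. DESeq2 called 8 lower, against 2.86% of all genes, and the fit with replicate number as a term 14 lower and 1 higher, against 6.33% and 6.70% of all genes. In total RNA edgeR called 1, lower, where 1.02% of all genes were called and 0.197% called lower, and 9 had an unadjusted p under 0.05, where 13.7% did. DESeq2 called 8 lower and 1 higher, against 2.75% and 3.97% of all genes, and the fit with the number 14 lower and 1 higher, against 6.15% and 6.99%. The median log2 fold change of the list was -0.33 on polysomes and -0.17 in total RNA, and 27 and 36 of the 85 lay above 0. Called lower in both fractions with the number as a term were Wnt4, Wnt5a, Wnt10a, Wnt10b, Rspo2, Fzd1, Fzd8, Ror1, Sfrp1, Trabd2b, Pygo1 and Ccnd1. The share of all genes called lower in both is not given here, so nothing is read from how many there were.

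The gene called was Rspo2 (chromosome 15, 43020794 to 43170826), an R-spondin, the ligand family that Lgr5 binds. Rspo2 had 0.124 and 0.295 CPM in AUF1 polysomes, against 23.9 and 8.85 CPM in WT polysomes, and 0.0701 and 0.111 CPM in AUF1 total RNA, against 19.8 and 7.09 CPM in WT total RNA. The groups lay far apart in both fractions, and since 0 AUF1 libraries but 4 WT libraries reached 10 counts, Rspo2 entered the fit through WT alone. In log2 units AUF1 over WT was -6.28 ± 0.90 on polysomes (edgeR adjusted p = 0.0579, 0.000524 with replicate number as a term) and -7.15 ± 0.96 in total RNA (edgeR adjusted p = 0.0413, 0.00042 with the term), with -7.16 and -5.32 within the numbers in total RNA. In total RNA its adjusted p ranged from 1.88e-10 to 0.388 over the alternatives, and in the fit without replicate number, where leaving out a library ended every gene's call, it was 0.0887 to 0.388 with 1 library left out. The fold then ran from -7.71 to -6.33. With replicate number as a term and 1 library left out, the log2 fold change of Rspo2 in total RNA ran from -7.92 to -6.17. Because Rspo2 entered the fit through WT alone, nothing is read from its call.

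Among the other ligands and secretion genes, 5 of 14 tested were called lower on polysomes and 6 in total RNA with the number as a term, Rspo2 included, where 6.33% and 6.15% of all genes were called lower. Without the term edgeR called 0 and 1, and DESeq2 1 and 1. Over all genes edgeR called 0.0684% and 0.197% lower, and DESeq2 2.86% and 2.75%. Wnt10b, a canonical ligand, had a log2 fold change of -1.43 ± 0.48 on polysomes and -1.07 ± 0.48 in total RNA, Wnt5a, mostly a noncanonical ligand, -2.08 ± 0.81 and -1.92 ± 0.83, and Wnt10a -1.83 ± 1.16 and -1.36 ± 1.14. Wnt4 and Wls, the carrier that brings Wnt ligands to the cell surface, were the others called, Wls in total RNA alone. Without WT replicate 1 of the same fraction Wnt5a had -1.13 on polysomes and -1.25 in total RNA, and Wnt10a -0.44 and -0.22. Without AUF1 replicate 1 Wnt10a had -3.12 and -2.89, and without AUF1 replicate 2 -1.18 and -0.65. Wnt7b had 1.85 ± 0.85 on polysomes and 1.89 ± 0.84 in total RNA and passed in neither fit. Of 16 receptors tested the fit with number called 3 lower in each fraction, Fzd1, Fzd8 and the Wnt5a receptor Ror1. It called 1 higher on polysomes, Fzd3, against 6.70% of all genes. Without the term edgeR called 0, and DESeq2 2 on polysomes and 3 in total RNA, all lower. Fzd8 had -2.03 ± 0.46 and -1.98 ± 0.46, Fzd1 -1.76 ± 0.57 and -1.81 ± 0.57, Ror1 -1.86 ± 0.69 and -2.38 ± 0.72, and Fzd3 1.37 ± 0.63 and 0.74 ± 0.62, on polysomes and in total RNA. Without WT polysome replicate 1 the polysome values were -1.15 for Fzd1 and -1.03 for Ror1, and without AUF1 polysome replicate 1 that of Fzd3 was 0.33.

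Of 7 extracellular inhibitors tested, 2 were called lower in each fraction with the number as a term and by DESeq2. EdgeR without the term called 0. Over all genes the fit with the term called 6.33% lower on polysomes and 6.15% in total RNA, and DESeq2 2.86% and 2.75%. Sfrp1, a relative of Sfrp2, had 0.280 and 0.0737 CPM in AUF1 polysomes, against 11.9 and 1.81 CPM in WT polysomes, with a log2 fold change of -5.21 ± 1.62 on polysomes and -4.88 ± 1.62 in total RNA. Without WT replicate 1 of the same fraction it was -3.30 on polysomes and -2.61 in total RNA. The AUF1 libraries held 1 to 9 counts of Sfrp1. Since 0 AUF1 libraries but 4 WT libraries reached 10 counts, Sfrp1 entered the fit through WT alone. Trabd2b, a protease that cleaves Wnt ligands, had 25.7 and 31.8 CPM in AUF1 polysomes, against 430 and 161 CPM in WT polysomes, with -3.36 ± 0.62 and -3.25 ± 0.62. Sfrp4 had -0.99 ± 0.88 and -1.05 ± 0.88, and Dkk2 0.37 ± 1.00 and 0.89 ± 1.05, and neither passed in any fit.

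Of the 17 cytoplasmic genes 0 were called in any of the 3 fits, which at the shares called over all genes does not set them apart, with a median of 0.01 on polysomes and 0.07 in total RNA. Without adjustment, 0 of the 17 had a p under 0.05 by edgeR or DESeq2 in either fraction. With the number as a term 3 did on polysomes and 1 in total RNA. Of all 13167 genes, 3705 on polysomes and 3639 in total RNA did with the term. Without it 1862 and 1807 did by edgeR, and 2110 and 2022 by DESeq2. Ctnnb1, which encodes β-catenin and was chosen for mention after its values were seen, had 306 and 307 CPM in AUF1 polysomes, against 286 and 233 CPM in WT polysomes, and 412 and 478 CPM in AUF1 total RNA, against 406 and 511 CPM in WT total RNA. The smallest p-values among the 17 were those of Ctnnbip1 (-0.82 ± 0.34 on polysomes, -0.55 ± 0.34 in total RNA) and Btrc (0.37 ± 0.24, 0.50 ± 0.24). Next came Dvl2 (-0.43 ± 0.25, -0.18 ± 0.25) and Amer1 (-0.33 ± 0.35, -0.59 ± 0.35).

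Of 11 nuclear cofactors and repressors, 3 were called lower on polysomes (Pygo1, Tle2, Tcf7l1) and 1 in total RNA (Pygo1) with the number as a term. Without it edgeR called 0, and DESeq2 2 on polysomes and 1 in total RNA, all lower. Over all genes the fit with the term called 6.33% lower on polysomes and 6.15% in total RNA, and DESeq2 2.86% and 2.75%. Pygo1, a β-catenin cofactor, had 3.11 and 3.69 CPM in AUF1 polysomes, against 9.97 and 10.9 CPM in WT polysomes, with a log2 fold change of -1.62 ± 0.34 on polysomes and -1.55 ± 0.34 in total RNA. Tcf7l1, the TCF family member known mainly as a repressor, had -0.95 ± 0.36 and -0.58 ± 0.36, Tle2 -0.96 ± 0.29 and -0.68 ± 0.28, and Bcl9l -0.54 ± 0.24 and -0.39 ± 0.24. Without WT polysome replicate 2 Tcf7l1 had -0.57 on polysomes. Of 12 target genes tested, Ccnd1, encoding cyclin D1, had 91.0 and 71.8 CPM in AUF1 polysomes, against 153 and 215 CPM in WT polysomes, with -1.18 ± 0.32 on polysomes and -1.24 ± 0.32 in total RNA, and was called lower with the number as a term in both. Wisp1 had -0.77 ± 0.43 and -1.02 ± 0.43, called lower with the term in total RNA, while Ephb3 had -0.996 ± 0.59 and -0.56 ± 0.59 and Bambi -2.22 ± 1.88 and -0.62 ± 1.85, uncalled. Of 8 planar polarity genes, Celsr3 had 1.31 ± 0.70 on polysomes and 2.44 ± 0.73 in total RNA and was called higher in total RNA with the term. Daam2 had -0.59 ± 0.23 and -0.49 ± 0.23, Celsr1 -2.51 ± 1.22 and -0.69 ± 1.10, and Daam1 0.35 ± 0.37 and 0.10 ± 0.37, uncalled in each fit.

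**Figure D4:**
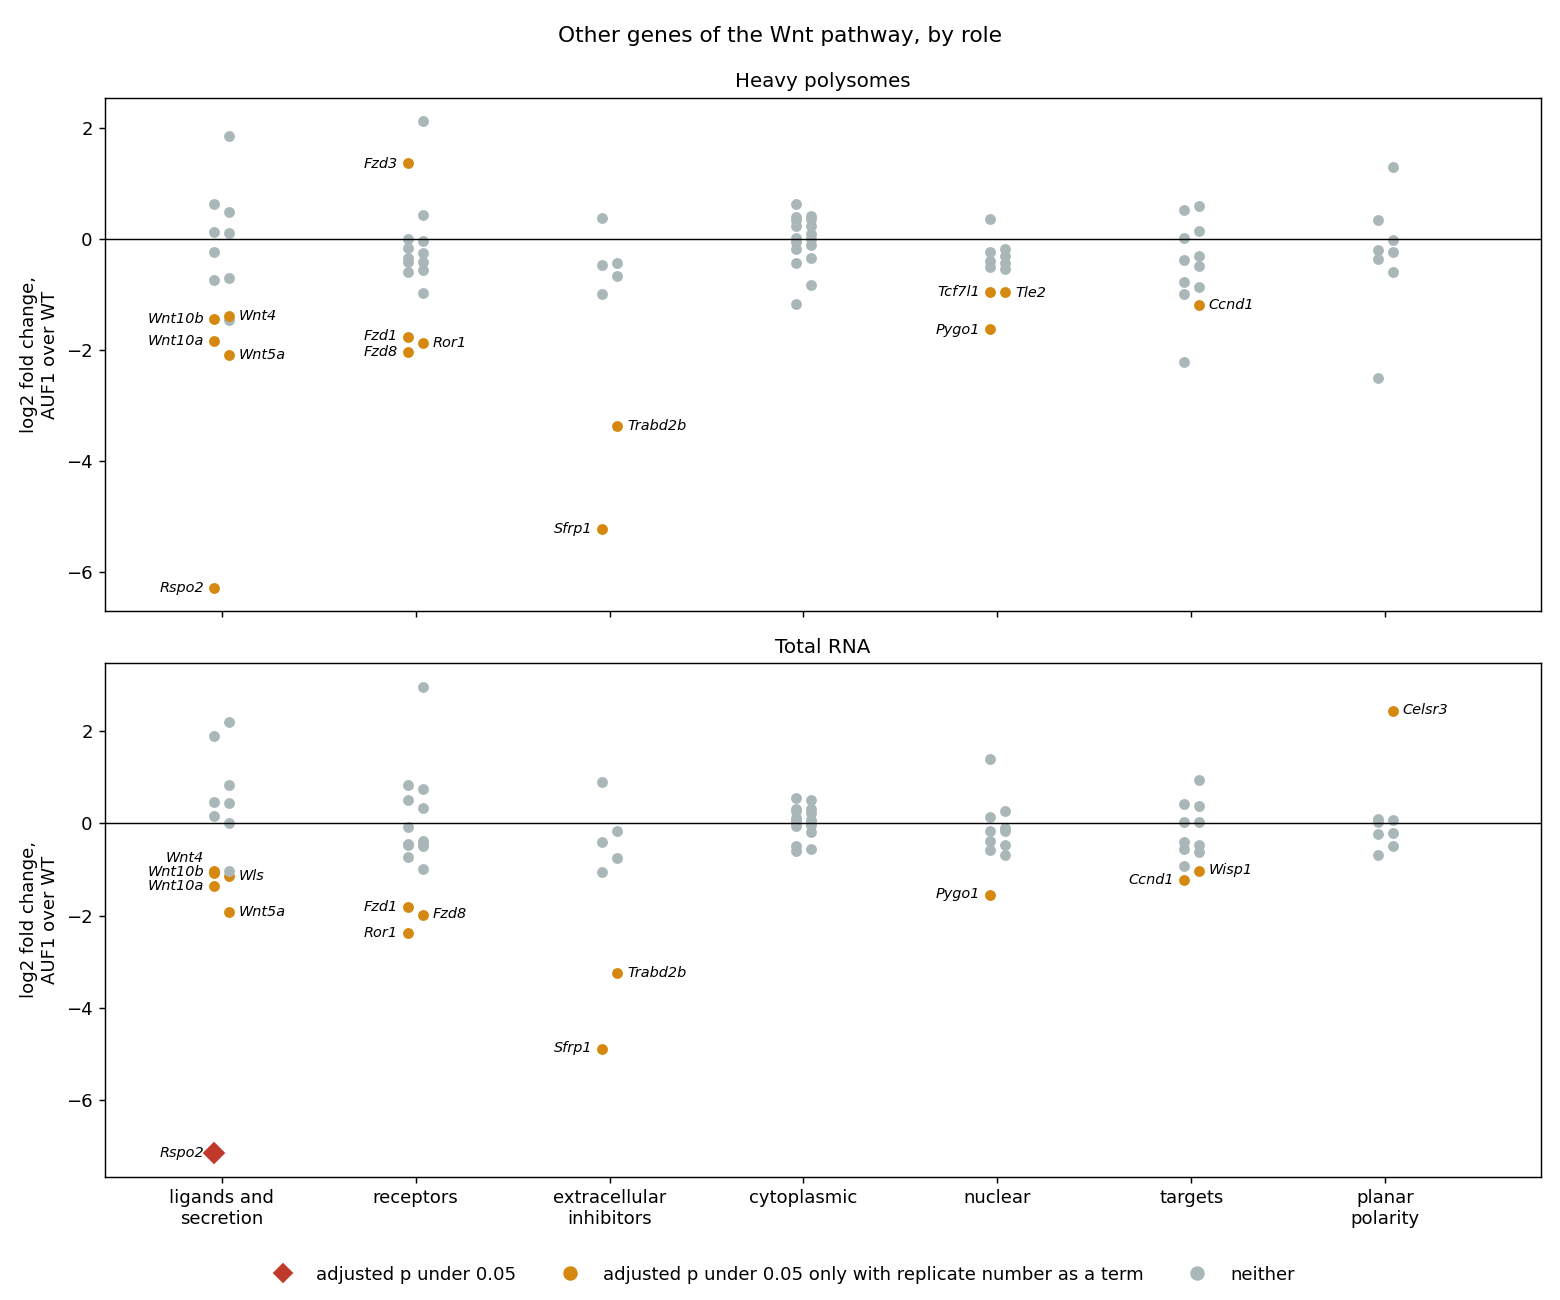
log2 fold change, AUF1 over WT, of the 85 tested genes of the wider Wnt list by role, on heavy polysomes (upper panel) and in total RNA (lower panel); the red diamond passed the test of the fit without replicate number, orange points passed with replicate number as a term alone, grey points neither. Rspo2, Sfrp1 and Trabd2b lie lowest among the called genes in both panels, and the cytoplasmic genes cluster around 0.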

How the data were processed

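Total RNA and heavy polysome RNA of C2C12 cells were sequenced from libraries made with a NEBNext Ultra kit from 500 ng RNA, per the labels' protocols. The authors deposited raw counts per gene symbol, with 23420 gene lines and 5 summary lines. Build mm10 and the tools STAR, Bowtie, SAMtools, Trimmomatic and cutadapt are named, with no order or role, per the submitters' processing notes. The sources used here do not give the counter, its strand setting or its annotation. Without a strand setting, reads of overlapping genes on opposite strands cannot be told apart. Reads in no gene took 6.04% to 7.23% of counts, and the summary lines were left out.

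Here 13167 genes passed filterByExpr (minimum count 10) in edgeR 4.0.16 (R 4.3.3). A quasi-likelihood fit with TMM scaling and 1 coefficient per group took all 8 libraries, tests were two-sided, and Benjamini-Hochberg adjustment ran over all genes tested, and calls were made at an adjusted p under 0.05. The SE was taken as a log2 fold change divided by the root of its F statistic. Changes within a replicate number use TMM-scaled CPM plus 0.0682 CPM. The alternatives were DESeq2 1.42.0, its size factors, no filter, the 4 libraries of a contrast alone, leaving out each library and replicate number as a term, which gave 3 residual degrees of freedom in place of 4. The median SE of a genotype change was 0.43 and 0.28 with that term, and 0.60 and 0.40 for the interaction. The fit was also run on simulated counts with known changes but no replicate-number effect, so that run cannot show how the fit handles this effect.

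The members, lists and tests were chosen with earlier results of these data known. Named from the wider list are called genes and up to 4 further genes per role with the smallest p. Genes called with replicate number as a term, such as Wnt4 and Wls, are also named. The 5 genes most like Axin2 and Sfrp2 in pattern were taken by Pearson's r, and 1 of them is not reported here. Positions, exon lengths and 3' untranslated regions (the longest coding transcript of a gene) come from GENCODE M21. Osteoblast, adipocyte, immune and endothelial markers were checked too, and their summed levels were at most 113, 18.6, 1.86 and 1.87 CPM.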

Additional observations from a re-analysis of the deposited data

How the results depend on the processing

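Counts of calls moved with the scaling and the model. Of 13167 genes, the count called on polysomes was 46, against 0 with DESeq2 size factors, 94 without the filter, 856 by DESeq2, 1716 with the replicate block and 0 from the 4 polysome libraries alone. In total RNA it was 134, against 0, 885 by DESeq2, 1730 with the replicate block and 0 from 4 libraries. For polysome over total it was 0, against 1 in AUF1 without the filter, 29 and 30 by DESeq2 and 2 and 2 with the block in AUF1 and WT. For the wider Wnt list it was 0 on polysomes, against 1 without the filter, 8 by DESeq2 and 15 with the replicate block, and 1 in total RNA, against 0 with size factors, 9 by DESeq2, 15 with the block and 0 from 4 libraries. Counts of calls with a library left out are not listed, since such a fit has 1 library in a group. With the block, some of these fits called fewer members, fewer genes of the wider list and fewer genes in all. The labels do not say what a number shares and there are 2 numbers, so the main fit did not take them as pairs. The changes within a number and the fit with the block do match libraries by number. Replicate 1 minus 2 differences correlated between groups at r of 0.62 to 0.81 over 13167 genes. Member medians on leaving out a library ran from -3.77 to -2.33 on polysomes and from -2.66 to -2.15 in total RNA, with 9 to 10 members below 0.

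Reversals were of small or scarce values, and the cause was not tested. Notum polysome over total in WT was 0.075 with the block, the Lgr5 interaction -0.048 with the block, and the Lef1 interaction 0.023 with DESeq2 size factors and 0.024 by DESeq2. On leaving out each library, AUF1 over WT ranged in total RNA from -4.42 to 0.31 for Notum, and the Znrf3 range on polysomes was -1.19 to 0.40. For the wider list the ranges in total RNA were -4.53 to 0.32 for Bambi, -2.28 to 0.067 for Celsr1, -0.21 to 0.34 for Daam1, -0.42 to 1.54 for Dkk2 and -1.53 to 0.0043 for Ephb3, and on polysomes -8.91 to 0.62 for Bambi, -0.017 to 0.68 for Daam1 and -1.49 to 1.26 for Dkk2. Polysome over total in AUF1 ran from -0.11 to 0.20 for Axin2, -0.074 to 0.44 for Lef1, -0.48 to 1.19 for Lgr5, -3.23 to 2.31 for Nkd1, -0.72 to 0.44 for Nkd2, -3.05 to 0.80 for Notum, -0.79 to 1.13 for Sfrp2 and -0.34 to 0.98 for Znrf3. In WT it ran from -0.13 to 1.22 for Lgr5, -0.29 to 0.48 for Nkd2, -1.97 to 2.55 for Notum, -1.60 to 2.55 for Sfrp2 and -0.59 to 0.79 for Znrf3. The interaction ran from -0.25 to 0.23 for Lef1, -0.93 to 0.72 for Lgr5, -4.56 to 0.98 for Nkd1, -0.79 to 0.41 for Nkd2, -3.81 to 0.94 for Notum, -2.38 to 1.69 for Sfrp2, -0.28 to 0.35 for Tcf7l2 and -0.60 to 0.99 for Znrf3. AUF1 over WT of Sfrp2, Lgr5, Axin2, Nkd1, Nkd2, Tcf7, Tcf7l2 and Lef1 kept its direction in both fractions under all alternatives changed one at a time. Lef1 came as near 0 as -0.0063 in total RNA, and within replicate 1 it lay above 0 (0.10 in total RNA, 0.02 on polysomes). With the block and WT total replicate 2 left out, 9 of 10 members lay below 0 in total RNA. Among the members, counts are lowest for Nkd1, Notum and Lgr5, and 2 libraries per group limit all values.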
